A study of Mus musculus with 8 samples.

Results

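The subject here is the histone genes of mouse thymic lymphoma, taken as 61 replication-dependent genes, whose symbols begin with Hist1h to Hist4h, and 9 variant genes, H2afx, H2afy, H2afz, H2afv, H2afj, H1f0, H1fx, H3f3a and H3f3b. They were chosen by symbol from the 13681 symbols of the deposited table, with the highest of several entries kept where a symbol had more than 1, which applied to H2afy and Hist1h2be. These 70 genes filled 74 of the 16589 entries of the table. The replication-dependent genes comprised 5 for the linker histone H1, 14 for H2A, 18 for H2B, 12 for H3 and 12 for H4. RNA was sequenced from 8 thymic lymphomas of C57BL/6 mice lacking p53, injected with adenovirus at 10 weeks of age and sampled 48 hours later. The 2 control libraries carry the label ΔNfl/fl;p53-/- and received Ad-mCherry. The 3 libraries labelled ΔNp63Δ/Δ;p53-/- and the 3 labelled ΔNp73Δ/Δ;p53-/- received Ad-CRE-mCherry, a virus with Cre recombinase, and are called the ΔNp63-labelled and ΔNp73-labelled libraries. ΔNp63 and ΔNp73 are the forms of these p53 relatives that lack the N-terminal transactivation domain. Controls differ from the other libraries in genotype and in virus together, so their effects cannot be told apart. The control label does not say which gene is floxed, and no label says that libraries of a group came from separate animals, so the tests measure the spread between libraries only.

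Histones are the proteins around which DNA is wound. Replication-dependent histone genes lie in clusters, are transcribed mainly while DNA is copied, and make mRNAs that end in a short stem-loop in place of a poly(A) tail. Variant genes lie outside these clusters and mostly make polyadenylated mRNA, outside the S phase as well. They supply histones for DNA repair, transcription and chromatin of resting cells.

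Values are fragments scaled by transcript length and library size (FPKM), quantile-normalised by the authors, so every library has the same distribution. Levels are per transcript length, but comparison between genes is limited by unknown capture and by sequence shared between copies, as given below. Read depth is unknown, and no counting interval is given. All 70 histone genes passed the minimum of 1 FPKM in at least 2 libraries, as did 12921 genes in all. Hist3h2bb-ps passed it through the controls only. In the fit without ΔNp63-labelled replicate 2, Hist1h1b and H1fx also passed through the controls only. The filter itself favours a fall of these genes, which are included in the counts below. Differences were tested with limma on log2(FPKM + 1), and a log2 fold change (log2FC) on that scale understates the change of genes near or below 1 FPKM. A gene was called when its Benjamini-Hochberg adjusted p over all genes tested was at most 0.05. The kit is a TruSeq RNA kit, and whether it selected polyadenylated RNA is not given in the sources used here, so how fully stem-loop mRNAs were captured was not tested.

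ΔNp63-labelled replicate 2 was unlike the rest of its group, and results are given with and without it. It was the highest of the 8 libraries for 31.5% of all genes tested. With it, 12 of 12921 genes were called between ΔNp63-labelled and control libraries. Without it, 2882 of 12782 genes were called. The summed FPKM of 19 thymocyte markers was between 7198 and 7918 in the controls, between 3426 and 5838 in the ΔNp63-labelled and between 3287 and 5218 in the ΔNp73-labelled libraries, with no marker at 0 in all libraries of a group. Trp63, the gene targeted in the ΔNp63-labelled group, had a log2FC of 0.09 (SE 0.67, adjusted p = 0.973) there by the same test, so directions below rest on the labels.

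The stem-loop is the typical end of replication-dependent histone mRNAs, so the sites of some genes described below are shown. They are given as DNA letters of the annotated transcript 5′ to 3′ with the 16-base stem-loop in capitals. They are from GENCODE M21 on GRCm38 and lie after the stop codon of single-exon genes, at chr13:21810893-21810918 (Hist1h2ao, plus strand), chr13:23551286-23551311 (Hist1h4f, minus strand), chr13:23761885-23761910 (Hist1h3a, minus strand), chr11:58949344-58949369 (Hist3h2ba, plus strand), chr13:23739507-23739532 (Hist1h1c, plus strand) and chr9:44335235-44335260 (H2afx, plus strand).
Hist1h2ao: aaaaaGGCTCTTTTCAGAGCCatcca
Hist1h4f: tcaaaGGCCCTTTTCAGGGCCaccca
Hist1h3a: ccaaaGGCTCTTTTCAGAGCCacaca
Hist3h2ba: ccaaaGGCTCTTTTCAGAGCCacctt
Hist1h1c: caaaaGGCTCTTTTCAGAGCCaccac
H2afx: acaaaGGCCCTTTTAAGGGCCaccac
Among the 60 replication-dependent genes that matched this annotation, 41 held a stem-loop, searched on the transcript's own strand. Of the variant genes, H2afx alone held one, among 9 matched. The stem-loop pattern occurred in 0.105% of 58797 protein-coding transcripts. The core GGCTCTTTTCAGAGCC was shared by 23 of the histone genes and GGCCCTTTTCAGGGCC by 6. In H2afx, which is known to make both a stem-loop mRNA and a polyadenylated one, the annotated transcript ran 822 bases past the stem-loop. That of Hist1h2ao ended 31 bases past it. Hist3h2bb-ps, a pseudogene by its symbol, was not matched. A further 13 replication-dependent transcripts ended at most 30 bases after the stop codon, so that no stem-loop could be seen in them. Another 6 had a longer end in which none was found. Of these, Hist2h3b and Hist1h1a had only 37 and 48 bases after the stop codon, and Hist1h2bc, Hist1h2bp and Hist1h2br had 2 exons. Only 1 transcript per gene was searched, so these genes may still have a stem-loop.

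Nearly all replication-dependent histone genes were lower in the ΔNp73-labelled libraries and in 2 of the 3 ΔNp63-labelled libraries than in the controls. Over the 61 genes, the median ratio of the group mean to the control mean was 0.238 in the ΔNp73-labelled group. In the ΔNp63-labelled group it was 0.566 with all libraries and 0.209 without replicate 2. The median level of the 61 genes was 23.2 and 23.1 FPKM in the controls, 4.60, 32.5 and 4.54 in the ΔNp63-labelled and 6.002, 5.11 and 9.77 in the ΔNp73-labelled libraries. Replicate 2 of the ΔNp63-labelled group was thus above both controls, while the other libraries given Cre were all below them. Below both controls lay 60, 11 and 60 of the 61 genes in the ΔNp63-labelled libraries and 59, 59 and 57 in the ΔNp73-labelled ones. Of all genes tested, 44.5% to 51.5% lay below both controls in any of these libraries. In 56 of the 61 genes all 5 Cre libraries other than ΔNp63-labelled replicate 2 were below both controls, against 27.8% of all genes tested. The genes outside this pattern were Hist1h2bc, Hist1h2an, Hist1h1c, Hist1h4i and Hist1h2ba. The summed FPKM was 11044 and 9123 in the controls, 3174, 12744 and 3111 in the ΔNp63-labelled and 2154, 1735 and 3472 in the ΔNp73-labelled libraries. Much of each sum came from Hist1h2ao. Without that gene the sums were 5307 and 3386, 1087, 4502 and 1024, and 866, 770 and 1536 in the same order. ΔNp63-labelled replicate 2 then lay between the controls. In bulk tumour RNA, fewer cells that copy their DNA and less histone mRNA per cell cannot be told apart.

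**Figure D1:**
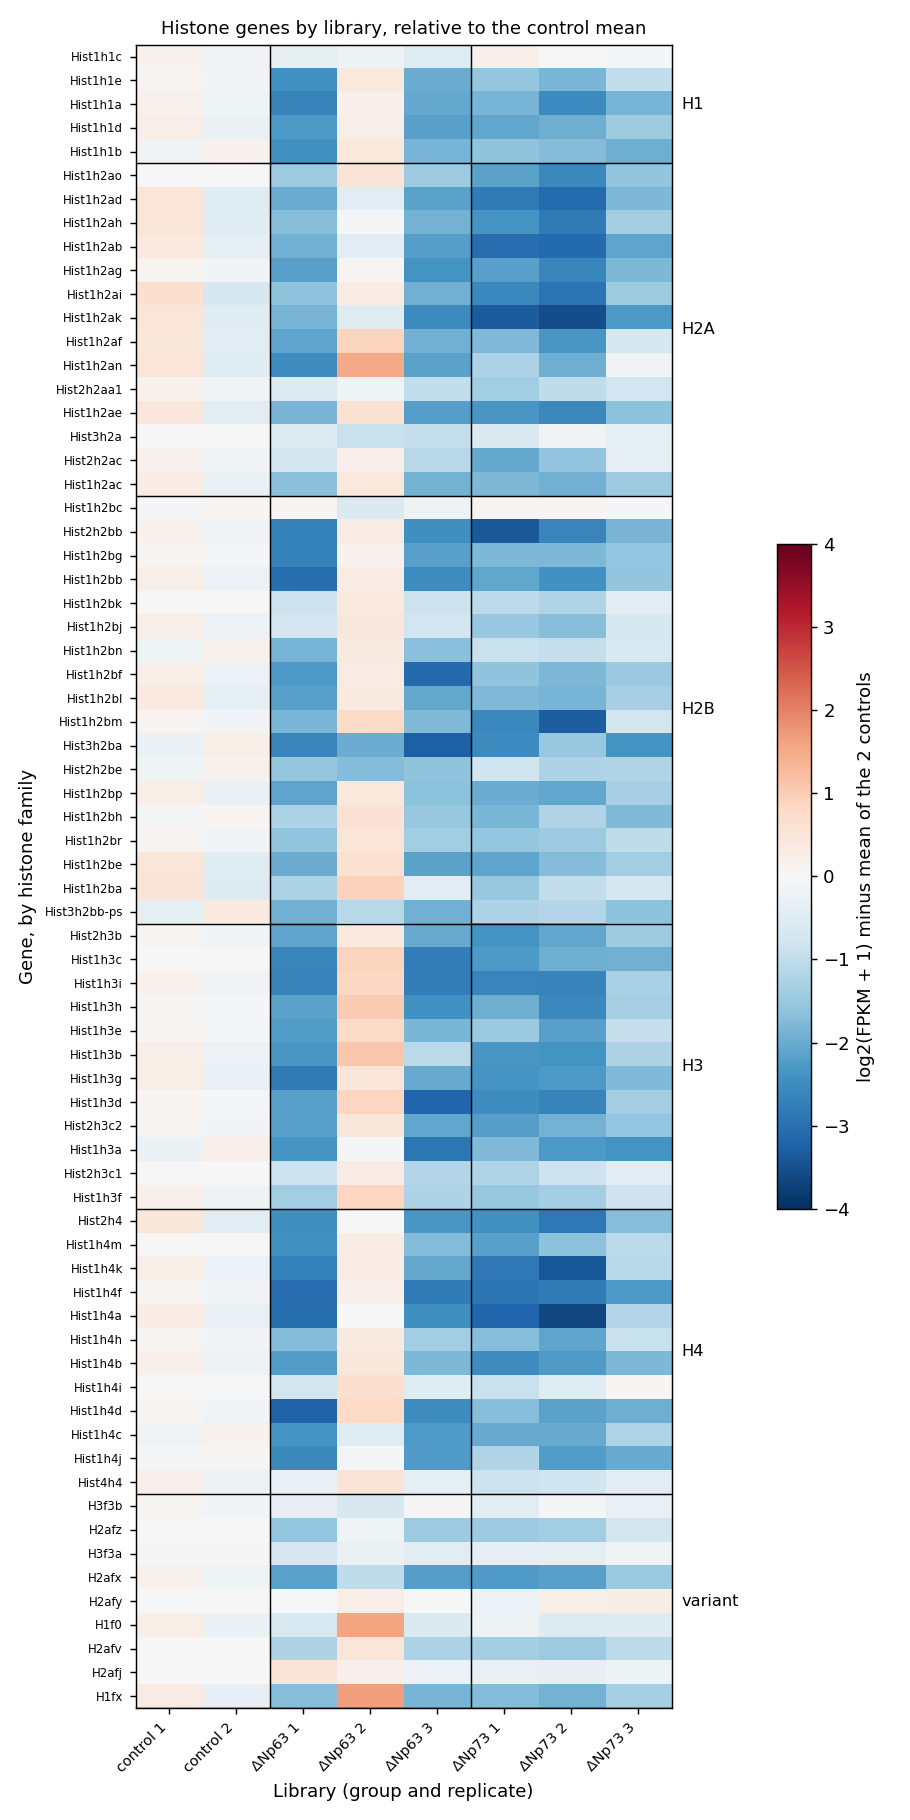
Each of the 70 histone genes (vertical axis, by family) in each of the 8 libraries (horizontal axis), coloured by log2(FPKM + 1) minus the mean of the 2 controls (blue, lower; red, higher). The columns of ΔNp63-labelled replicates 1 and 3 and the 3 ΔNp73-labelled columns are blue for most replication-dependent genes, whereas ΔNp63-labelled replicate 2 is pale or red for most.

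With all libraries in the model, the ΔNp63-labelled group differed from control in 1 replication-dependent gene, Hist2h2be, which was lower, beside 0.0929% of all genes called in that comparison and 0.0619% called lower. By an unadjusted p under 0.05, 9 of the 61 genes were lower, beside 7.03% of all genes. The log2FC was below 0 in all 61 genes, beside 52.3% of all genes, and below -1 in 43, beside 2.35%. The median log2FC was -1.25 for these genes and -0.02 for all genes. In 10 of the 61 genes the groups did not overlap, beside 17.7% of all genes lower without overlap. Without replicate 2, 50 of the 61 genes fell by the adjusted test and none rose, beside 10.8% of all genes called lower, and the median log2FC was -2.06. The ΔNp63-labelled comparison therefore depends on replicate 2, which lay near or above the controls for most of these genes.

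In the ΔNp73-labelled group no replication-dependent gene was called with all libraries, beside 0.0542% of all genes called and 0.00774% called lower, while 34 of 61 were lower at an unadjusted p under 0.05, beside 9.83% of all genes. The log2FC was below 0 in 59 genes, beside 56.7%, and below -1 in 53, beside 3.25%. In 57 of the 61 genes every ΔNp73-labelled library was below both controls, beside 35.7% of all genes lower without overlap. The median log2FC was -1.80 against -0.07 for all genes. The adjusted test of this comparison shares its estimate of the spread with all groups. With only the ΔNp73-labelled and control libraries in the model, 51 of the 61 genes were called, beside 29.8% of all genes. Without ΔNp63-labelled replicate 2, whose removal leaves the ΔNp73-labelled and control values as they are, 54 of the 61 genes fell and none rose, beside 16.1% of all genes called lower. Both comparisons use the same 2 control libraries.

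By family, the median log2FC in the ΔNp73-labelled group was -2.14 for H2A, -1.61 for H2B, -1.97 for H3, -1.88 for H4 and -1.76 for H1. In the ΔNp63-labelled group it was -1.07, -1.14, -1.25, -1.54 and -1.33 in the same order, and without replicate 2 it was -1.91, -1.85, -2.21, -2.35 and -2.20. Each family thus had a median below that of all genes in both comparisons. H2A and H2B form the outer dimers of the nucleosome, H3 and H4 its inner tetramer, and H1 binds the linker DNA between nucleosomes.

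**Figure D2:**
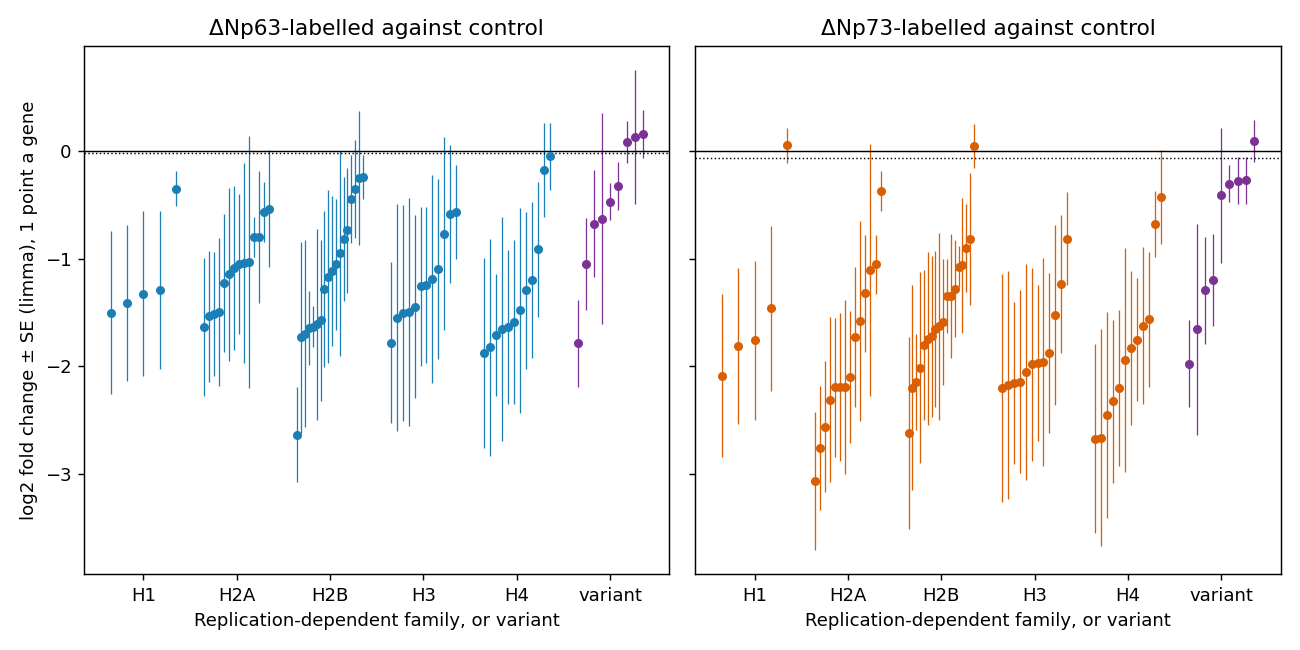
Log2 fold change against control (vertical axis, limma, all 8 libraries) of each histone gene, sorted within its family or the variant class (horizontal axis), as points with bars of 1 standard error; left, ΔNp63-labelled, right, ΔNp73-labelled, with the median of all genes dotted. Most replication-dependent points lie below -1, at 43 and 53 of 61 genes, and the variant points spread from -1.98 to 0.09 in the ΔNp73-labelled group.

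The H2A genes included Hist1h2ao, the histone gene with the highest mean level. In the next sentences levels are FPKM in the order of the controls, the ΔNp63-labelled and the ΔNp73-labelled libraries, each by replicate number. Hist1h2ao was at 5737 and 5737, 2086, 8241 and 2086, and 1288, 965 and 1936 FPKM. It ranked 3, 3, 18, 2, 18, 34, 51 and 20 by library among the entries kept, 1 per symbol. Because the normalisation assigns a value to each rank over all entries, its equal values between libraries of a group are those of a rank. The log2FC of Hist1h2ao was -2.10 (SE 0.61, adjusted p = 0.13) in the ΔNp73-labelled group and -0.80 (SE 0.61, adjusted p = 0.611) in the ΔNp63-labelled group. Hist1h2ad was at 1050.0 and 544, 189, 548 and 170.1, and 106, 88.9 and 218 FPKM, with a log2FC of -2.56 (SE 0.61, adjusted p = 0.0999) in the ΔNp73-labelled group. Hist1h2ah was at 626 and 325, 136, 430.1 and 121, and 86.3, 63.3 and 171 FPKM. Hist1h2ab was at 516 and 295, 102, 294 and 83.8, and 46.7, 44.1 and 88.9 FPKM. In these genes the 3 ΔNp73-labelled libraries lay below both controls without overlap, and ΔNp63-labelled replicate 2 lay among, close to or above the controls. Hist1h2ag was at 280.4 and 244, 57.4, 275 and 49.3, and 56.8, 42.5 and 74.8 FPKM, Hist1h2ai at 312 and 127, 64.5, 245 and 51.3, and 32.8, 25.02 and 74.2 FPKM. Hist1h2ak was at 330.5 and 172, 64.7, 169 and 40.2, and 22.7, 19.5 and 47.3 FPKM. Hist1h2ak had the lowest log2FC of any histone gene in the ΔNp73-labelled group, -3.06 (SE 0.64, adjusted p = 0.0841). Hist1h2af was at 194 and 104, 32.2, 264 and 37.04, and 40.9, 27.7 and 91.3 FPKM. Hist1h2an was at 107 and 53.5, 12.9, 219 and 16.4, and 31.4, 19.05 and 69.3 FPKM. For Hist1h2an the ΔNp73-labelled libraries overlapped the controls, and the ΔNp63-labelled replicate 2 was the highest library. Hist2h2aa1, from the small cluster on another chromosome, was at 90.5 and 74.6, 55.8, 72.9 and 40.9, and 31.04, 40.01 and 47.9 FPKM. Hist1h2ae was at 57.2 and 29.9, 10.6, 64.02 and 8.297, and 7.35, 6.12 and 12.5 FPKM. In both the lowest library was a ΔNp73-labelled one. Hist2h2ac was at 7.71 and 6.15, 3.78, 8.13 and 2.67, and 0.927, 1.65 and 5.19 FPKM. Hist1h2ac was at 7.24 and 4.57, 1.14, 8.08 and 0.807, and 0.947, 0.772 and 1.49 FPKM. Hist3h2a was at 13.4 and 12.8, 8.59, 6.699 and 6.25, and 8.53, 11.7 and 9.77 FPKM, with every Cre library below both controls, replicate 2 of the ΔNp63-labelled group included, and its ΔNp63-labelled log2FC was -0.80 (SE 0.19, adjusted p = 0.206).

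Of the 18 H2B genes, 11 had a log2FC below -1 in the ΔNp63-labelled group and 15 in the ΔNp73-labelled group. Hist2h2bb was at 136 and 112, 18.02, 155 and 21.6, and 11.1, 18.7 and 33.6 FPKM. Hist1h2bg was at 72.4 and 65.5, 9.63, 78.4 and 14.4, and 18.9, 19.1 and 22.9 FPKM. Hist1h2bb was at 65.5 and 46.5, 5.91, 68.4 and 9.13, and 12.4, 9.59 and 17.97 FPKM. These 3 genes were higher in the controls and in ΔNp63-labelled replicate 2 than in any other library. Hist1h2bk was at 24.3 and 23.3, 12.5, 31.5 and 12.6, and 10.98, 9.78 and 16.99 FPKM. Hist1h2bj was at 22.1 and 16.003, 10.8, 25.9 and 10.7, and 5.98, 5.11 and 11.7 FPKM. Hist1h2bn was at 13.7 and 17.6, 3.58, 20.4 and 4.16, and 7.92, 7.604 and 9.72 FPKM. Differences were smaller in these 3, with no overlap between ΔNp73-labelled and control libraries. Hist1h2bf was at 18.3 and 13.0, 2.32, 19.5 and 0.919, and 4.37, 3.77 and 4.85 FPKM. Hist1h2bl was at 15.4 and 8.54, 1.79, 15.02 and 2.03, and 2.67, 2.48 and 3.95 FPKM. Hist1h2bm was at 10.2 and 8.62, 1.895, 16.6 and 2.03, and 0.753, 0.0611 and 5.22 FPKM. Hist1h2bm came to near 0 in ΔNp73-labelled replicate 2, where the pseudocount of 1 sets the log2 value. Hist1h2bp was at 7.997 and 5.33, 0.736, 9.14 and 1.398, and 0.891, 0.788 and 1.98 FPKM. Hist1h2bh was at 5.51 and 6.19, 1.84, 9.17 and 1.39, and 0.943, 1.99 and 1.02 FPKM. Hist1h2br was at 5.65 and 4.75, 1.09, 7.72 and 1.38, and 1.11, 1.26 and 2.03 FPKM. The ΔNp63-labelled replicate 2 was the highest of the 8 libraries in each of these 3. Hist1h2be was at 6.66 and 2.91, 0.375, 7.41 and 0.246, and 0.272, 0.651 and 1.08 FPKM, and Hist1h2ba, a testis H2B gene, at 4.396 and 1.67, 0.581, 6.14 and 1.83, and 0.333, 0.898 and 1.36 FPKM.

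Of the H2B genes outside the Hist1 cluster, Hist2h2be, Hist3h2ba and Hist3h2bb-ps were below both controls in ΔNp63-labelled replicate 2, unlike Hist2h2bb. Hist2h2be was at 9.57 and 12.2, 3.08, 2.53 and 2.85, and 5.77, 4.06 and 4.16 FPKM. All 3 ΔNp63-labelled libraries lay together below all other libraries, and the ΔNp73-labelled ones lay between them and the controls without overlap. The log2FC of Hist2h2be was -1.63 (SE 0.19, adjusted p = 0.0459) in the ΔNp63-labelled group and -1.08 (SE 0.19, adjusted p = 0.0787) in the ΔNp73-labelled group. The ΔNp63-labelled call was lost with a pseudocount of 0.5 (limma adjusted p = 0.0503), with only these 2 groups in the model (adjusted p = 0.264) and without any single library other than ΔNp63-labelled replicate 2 (adjusted p from 0.0549 to 0.745). The adjusted p was 0.00243 when that replicate was left out. Hist3h2ba was at 12.4 and 18.6, 1.58, 3.11 and 0.6796, and 1.78, 4.699 and 2.11 FPKM, with a log2FC of -2.63 (SE 0.44, adjusted p = 0.142) in the ΔNp63-labelled and -2.14 (SE 0.44, adjusted p = 0.0835) in the ΔNp73-labelled group. Hist3h2bb-ps, next to it in name, was at 1.84 and 3.97, 0, 0.738 and 0, and 0.607, 0.657 and 0.214 FPKM. In both genes every Cre library was below both controls, replicate 2 of the ΔNp63-labelled group included, and neither was called with all libraries. Without that replicate Hist3h2ba fell, with log2FC -2.96 (SE 0.38, adjusted p = 0.00342). Hist3h2bb-ps, then with log2FC -1.91 (SE 0.28, adjusted p = 0.0054), reached 1 FPKM in the controls only. It passed the filter through that group alone, so its lower Cre values are not a separate result.

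All 12 H3 genes had every ΔNp73-labelled library below both controls, as had 35.7% of all genes. Hist2h3b was at 39.2 and 34.3, 7.699, 48.2 and 8.37, and 6.14, 7.84 and 13.2 FPKM. Hist1h3c was at 34.2 and 33.3, 4.56, 63.6 and 4.08, and 6.002, 8.06 and 8.21 FPKM. Hist1h3i was at 35.4 and 28.8, 4.12, 57.2 and 3.795, and 4.31, 4.14 and 12.5 FPKM. In the last 2 genes ΔNp63-labelled replicate 2 was clearly above both controls and the other ΔNp63-labelled libraries were the lowest or close to it. Without that replicate the log2FC of Hist1h3c was -2.71 (SE 0.15, adjusted p = 0.000491) in the ΔNp63-labelled and -2.06 (SE 0.14, adjusted p = 0.000643) in the ΔNp73-labelled group. Hist1h3h was at 29.4 and 27.4, 5.597, 58.1 and 4.46, and 6.52, 3.87 and 10.7 FPKM. Hist1h3e was at 26.5 and 23.7, 4.60, 43.1 and 6.35, and 8.27, 4.77 and 12.9 FPKM. Replicate 2 was again the highest library. Hist1h3b was at 22.5 and 15.8, 2.94, 41.2 and 8.50, and 2.97, 2.81 and 7.41 FPKM. Hist1h3g was at 23.2 and 15.7, 1.86, 27.02 and 4.01, and 2.89, 3.11 and 4.94 FPKM. Hist1h3d was at 18.5 and 16.6, 3.09, 32.5 and 1.07, and 2.35, 1.94 and 6.06 FPKM. In these 3 the controls lay between replicate 2 and the other Cre libraries. Hist2h3c2 was at 18.2 and 15.6, 2.98, 23.7 and 3.23, and 2.86, 3.86 and 5.14 FPKM. Hist1h3a was at 15.7 and 23.1, 2.92, 17.96 and 1.69, and 4.87, 3.08 and 2.82 FPKM. Hist1h3a was highest in control replicate 2, not in ΔNp63-labelled replicate 2. Hist2h3c1 was at 9.76 and 9.79, 4.904, 12.5 and 3.83, and 3.69, 5.11 and 7.03 FPKM. Hist1h3f was at 4.77 and 3.296, 0.896, 8.02 and 1.12, and 0.733, 0.959 and 1.79 FPKM.

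All H4 genes encode the same protein, so they are described by level. Hist2h4 was at 276 and 148, 36.4, 204 and 39.2, and 37.3, 26.9 and 61.7 FPKM. Hist1h4m was at 124 and 125, 22.5, 152 and 36.4, and 27.1, 39.1 and 59.03 FPKM. Hist1h4k was at 135 and 95.5, 16.7, 141 and 26.4, and 14.7, 10.01 and 51.8 FPKM. In these, the highest H4 genes in the controls, every ΔNp73-labelled library was below both controls. Hist1h4f was at 76.4 and 66.6, 7.84, 81.7 and 9.44, and 8.47, 9.51 and 13.8 FPKM. Its log2FC in the ΔNp73-labelled group was -2.67 (SE 0.88, adjusted p = 0.159) with all libraries and -2.67 (SE 0.20, adjusted p = 0.00066) without ΔNp63-labelled replicate 2, where the spread is smaller. Hist1h4a was at 71.6 and 47.2, 6.304, 58.8 and 9.73, and 5.64, 3.69 and 25.4 FPKM. In both, the 5 Cre libraries other than replicate 2 were below the controls, with ΔNp73-labelled replicate 3 of Hist1h4a the nearest to them. Hist1h4h was at 44.4 and 38.2, 11.7, 53.4 and 15.2, and 12.02, 8.72 and 21.9 FPKM. Hist1h4b was at 44.6 and 33.7, 7.39, 53.3 and 10.4, and 5.996, 7.18 and 10.4 FPKM. Hist1h4d was at 33.6 and 28.5, 2.39, 54.95 and 4.54, and 8.76, 6.24 and 7.17 FPKM. Hist1h4d, like most H4 genes, was highest in replicate 2 of the ΔNp63-labelled group. Hist1h4c was at 20.1 and 24.05, 3.44, 15.5 and 3.76, and 4.67, 4.67 and 8.89 FPKM. Hist1h4j was at 19.8 and 20.7, 2.56, 19.4 and 3.42, and 8.16, 3.47 and 4.24 FPKM. In these genes replicate 2 lay below both controls but above the other Cre libraries. Hist1h4i was at 21.8 and 22.3, 12.9, 35.6 and 15.5, and 11.4, 15.5 and 23.4 FPKM, with ΔNp73-labelled replicate 3 above both controls. Hist4h4, a single gene outside the clusters, was at 1.93 and 1.17, 1.05, 2.61 and 0.947, and 0.426, 0.440 and 0.898 FPKM, close to the minimum of 1 FPKM.

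Of the 5 H1 genes, 4 had a log2FC below -1 in both comparisons with control. Hist1h1e was at 16.4 and 13.7, 1.999, 20.3 and 3.04, and 4.45, 3.496 and 7.01 FPKM. Hist1h1a was at 13.5 and 10.5, 1.04, 13.9 and 2.14, and 2.56, 1.21 and 2.59 FPKM. Hist1h1d was at 9.97 and 6.63, 0.846, 9.86 and 1.03, and 1.17, 1.38 and 2.43 FPKM. Hist1h1b was at 3.86 and 4.98, 0, 6.17 and 0.487, and 0.773, 0.622 and 0.403 FPKM, and is listed at 0 in ΔNp63-labelled replicate 1. In these 4 genes the controls and ΔNp63-labelled replicate 2 were above the other libraries. Hist1h1c stood apart at 25.6 and 20.5, 17.6, 19.6 and 16.1, and 26.5, 22.7 and 22.4 FPKM, with ΔNp73-labelled libraries overlapping the controls. Its log2FC was 0.05 (SE 0.16, adjusted p = 0.879) in the ΔNp73-labelled and -0.35 (SE 0.16, adjusted p = 0.415) in the ΔNp63-labelled group. Every ΔNp63-labelled library of Hist1h1c lay below both controls, beside 17.7% of all genes lower without overlap. Hist1h2bc, an H2B gene, was nearly level at 66.5 and 73.8, 73.98, 46.1 and 60.4, and 74.96, 74.1 and 68.2 FPKM. Its log2FC was 0.05 (SE 0.20, adjusted p = 0.91) in the ΔNp73-labelled and -0.24 (SE 0.20, adjusted p = 0.655) in the ΔNp63-labelled group. These were the only replication-dependent genes with a log2FC above 0 in the ΔNp73-labelled group. The stem-loop of Hist1h1c is among those shown above, whereas none was found in the annotated transcript of Hist1h2bc, which has 2 exons.

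The variant genes split in their values. Named by what they encode, H2afx supplies the H2A that is phosphorylated at DNA breaks. H2afx was at 319.9 and 256, 64.1, 142 and 61.3, and 58.5, 62.98 and 101 FPKM, with a log2FC of -1.78 (SE 0.40, adjusted p = 0.199) in the ΔNp63-labelled and -1.98 (SE 0.40, adjusted p = 0.0824) in the ΔNp73-labelled group. Every Cre library was below both controls, and ΔNp63-labelled replicate 2 was the highest of them. H2afz and H2afv encode the forms of H2A.Z, found at promoters. H2afz was at 609.5 and 597, 208, 536 and 219, and 221, 228 and 358 FPKM, and H2afv at 39.9 and 39.4, 16.2, 55.4 and 15.9, and 14.8, 13.8 and 18.5 FPKM. H1fx, a linker histone variant, was at 4.18 and 2.26, 0.263, 12.01 and 0.134, and 0.232, 0.104 and 0.624 FPKM. None of these 4 was called with all libraries. All 4 fell in both groups when ΔNp63-labelled replicate 2 was left out. In that fit H1fx reached 1 FPKM in the controls only and passed the filter through them alone, so its fall is not a separate result. For H2afx the log2FC was then -2.17 (SE 0.26, adjusted p = 0.00265) in the ΔNp63-labelled and -1.98 (SE 0.24, adjusted p = 0.00187) in the ΔNp73-labelled group. For H2afz the values were -1.49 (SE 0.23, adjusted p = 0.00609) and -1.20 (SE 0.21, adjusted p = 0.00675).

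The remaining variants differed less. H3f3a and H3f3b encode the same replacement form of H3, which is put into chromatin throughout the cell cycle. H3f3b was at 539 and 454, 398, 319.9 and 480.2, and 358, 466 and 404 FPKM, where the Cre libraries overlapped the controls. H3f3a was at 404 and 438, 265, 344 and 305, and 318, 325 and 381 FPKM, with every Cre library below both controls, and fell in the ΔNp63-labelled group without replicate 2 (log2FC -0.56, SE 0.14, adjusted p = 0.0301). H2afy, for macroH2A, an H2A with a large added domain, was at 54.8 and 53.9, 53.8, 64.9 and 54.4, and 45.8, 63.5 and 67.0 FPKM for its highest entry. Its next entry was at 32.5 and 35.1, 22.6, 34.01 and 28.0, and 28.4, 39.4 and 37.0 FPKM. There ΔNp63-labelled replicates 1 and 3 and ΔNp73-labelled replicate 1 lay below both controls. H2afj was at 16.3 and 16.5, 23.9, 18.9 and 13.6, and 13.04, 12.8 and 14.2 FPKM. H1f0, a linker histone gene known for high levels in resting and differentiated cells, was at 48.9 and 34.05, 26.2, 123 and 27.2, and 35.5, 28.1 and 28.1 FPKM. The H1f0 level in ΔNp63-labelled replicate 2 was 2.96 times the control mean, above every other library. None of these genes was called with all libraries.

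**Figure D3:**
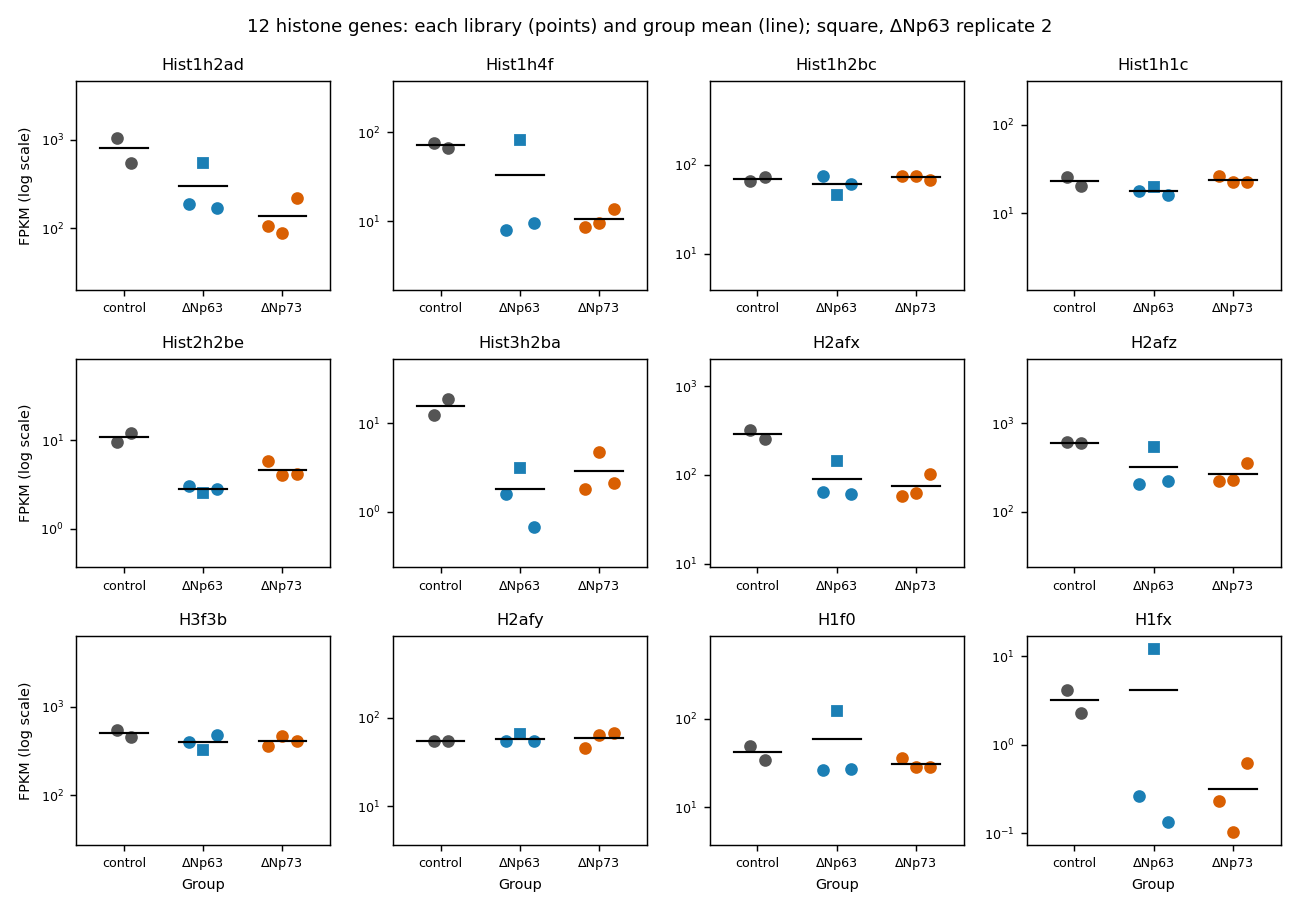
FPKM (vertical axis, log scale, the same span in every panel) of 12 histone genes by group (horizontal axis), with 1 point per library, a line at the group mean and a square for ΔNp63-labelled replicate 2. Hist1h4f shows the common pattern, and Hist1h2bc and H2afy, by its highest entry, are nearly level. In Hist2h2be and Hist3h2ba the square lies with its group.

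Set side by side, the variant class had a median log2FC of -0.47 in the ΔNp63-labelled and -0.41 in the ΔNp73-labelled group, beside -1.25 and -1.80 for the replication-dependent class. Of the 9 variant genes, 0 were called in either comparison, beside 0.0929% and 0.0542% of all genes, while 3 were lower at an unadjusted p under 0.05 in each, beside 7.03% and 9.83%. Without ΔNp63-labelled replicate 2, 5 fell in the ΔNp63-labelled and 4 in the ΔNp73-labelled group, beside 10.8% and 16.1% of all genes called lower. Below both controls lay 8, 4 and 7 of the 9 variant genes in the ΔNp63-labelled libraries and 8, 7 and 8 in the ΔNp73-labelled ones. The share of all genes tested was 44.5% to 51.5% in these libraries, with 47.2% in ΔNp63-labelled replicate 2. The variants were thus also mostly below the controls in the Cre libraries other than ΔNp63-labelled replicate 2. Each gene was then set against its control mean on the log2(FPKM + 1) scale, and the median of these differences over the variants was -0.66, 0.19 and -0.57 in the ΔNp63-labelled and -0.46, -0.52 and -0.52 in the ΔNp73-labelled libraries. Over the replication-dependent genes the median difference was -2.12, 0.37 and -1.98 in the ΔNp63-labelled and -1.97, -2.02 and -1.39 in the ΔNp73-labelled libraries. The replication-dependent median was thus the lower one in the 5 Cre libraries other than ΔNp63-labelled replicate 2, where it was the higher one. The difference between the classes was given no test.

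Between the ΔNp73-labelled and ΔNp63-labelled groups, which both received Cre, no histone gene was called, beside 0.0542% of all genes. Of the replication-dependent genes, 3 were lower and 3 higher at an unadjusted p under 0.05, beside 4.4% and 6.11% of all genes. The median log2FC, ΔNp73-labelled minus ΔNp63-labelled, was -0.62 for these genes and -0.19 for the variants. Without ΔNp63-labelled replicate 2 both turned positive, to 0.20 and 0.12, with 0 of 70 genes called beside 0.149% of all genes. The gene with the smallest p was Hist2h2be, higher in the ΔNp73-labelled libraries (log2FC 0.56, SE 0.17, adjusted p = 0.439). Among the variants it was H2afj, with log2FC -0.43 (SE 0.20, adjusted p = 0.475).

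Many H2A and H2B genes lie head to head, with start sites close together on opposite strands, and share the DNA between them as a promoter. In the GRCm38 annotation 10 such pairs had starts at most 1000 bases apart, 9 of them H2A with H2B. In the ΔNp73-labelled group the H2A partner had the lower log2FC in 8 of these 9 pairs, and in the ΔNp63-labelled group in 4, or in 5 without replicate 2. Hist1h2ac and Hist1h2bc, 251 bases apart, had log2FC of -1.73 and 0.05 in the ΔNp73-labelled group. Hist1h2ak and Hist1h2bn, 296 bases apart, had -3.06 and -0.82. Of their stretches of 50 bases, 52.3% and 86.45% also occurred in other histone genes of the set, so these values are uncertain between copies. Shared sequence by family is given below and limits other pairs too. Hist2h2ac and Hist2h2be, 239 bases apart, had -1.32 and -1.08, and in the ΔNp63-labelled group -0.54 and -1.63, where ΔNp63-labelled replicate 2 was at 8.13 FPKM for Hist2h2ac, above both controls, and at 2.53 for Hist2h2be, below them. Without that replicate the ΔNp63-labelled values of the pair were -0.91 and -1.58. The differences within pairs were not tested.

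**Figure D4:**
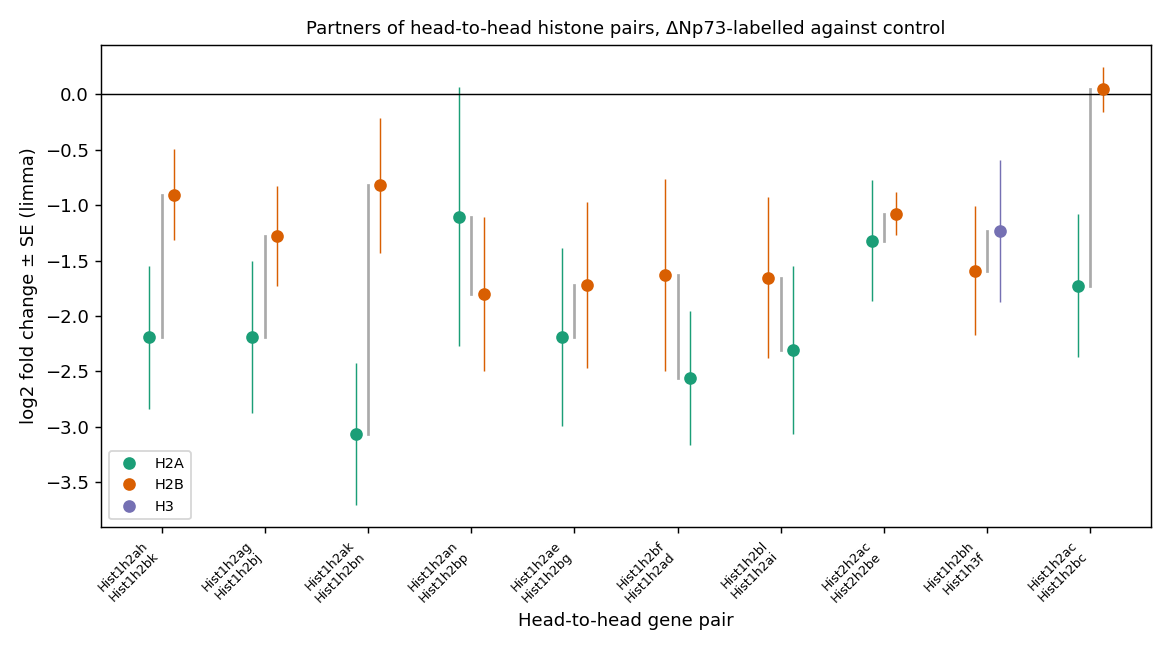
Log2 fold change of the ΔNp73-labelled group against control (vertical axis, limma, bars of 1 standard error) of both partners of the 10 head-to-head pairs (horizontal axis), coloured by family. The H2A point is the lower one in 8 of 9 H2A and H2B pairs, and the widest gaps are those of Hist1h2ak with Hist1h2bn and Hist1h2ac with Hist1h2bc.

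The shared promoters of the pairs with Hist1h2bc and with Hist2h2be are shown because their partners differed. They are the 250 bases before the start of the H2A gene from the RefSeq promoter table (GRCm38.p6), both read on the minus strand, at chr13:23683960-23684209 for Hist1h2ac and chr3:96220881-96221130 for Hist2h2ac. Capitals mark the CCAAT box, the TATA box as the letters TATAAA, and the octamer, which is ATTTGCAT. Each was searched on both strands, so reverse complements are in capitals too, and the marked sites do not overlap in these sequences.
Hist1h2ac: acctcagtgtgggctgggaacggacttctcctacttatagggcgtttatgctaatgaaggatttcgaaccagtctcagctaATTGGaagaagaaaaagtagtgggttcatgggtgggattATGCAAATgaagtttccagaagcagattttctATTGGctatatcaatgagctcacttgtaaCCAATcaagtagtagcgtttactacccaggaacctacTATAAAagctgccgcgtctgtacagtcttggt
Hist2h2ac: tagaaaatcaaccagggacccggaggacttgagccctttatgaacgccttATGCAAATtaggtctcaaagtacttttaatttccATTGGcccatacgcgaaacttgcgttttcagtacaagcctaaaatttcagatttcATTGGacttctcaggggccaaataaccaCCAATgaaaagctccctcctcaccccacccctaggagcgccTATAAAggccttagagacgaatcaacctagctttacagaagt
Each holds all 3 motifs. With 50 bases after the start included, CCAAT was in 85.7% of 56 replication-dependent promoters (55 genes), in 5 of 8 variant promoters and in 37.4% of all 32851 promoters in the table. It was in all promoters of the H1, H2A, H2B and H3 genes matched and in 3 of 11 for H4. TATAAA was in 57.1% of replication-dependent, 1 of 8 variant and 13.6% of all promoters. The octamer was in 6 of 14 H2A and 7 of 16 H2B promoters, in no H1, H3 or H4 promoter and in 1.74% of all. These matches are letters in the sequence only, and Hist1h2bc, Hist2h2be and H2afx had no entry of their own.

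Near-identical copies limit how far single genes can be separated. Over stretches of 50 bases, a median of 41.9% of a replication-dependent transcript was shared with another histone gene of the set, with 62.6% for H2A, 57.2% for H3, 38.2% for H2B, 33.5% for H4 and 2.21% for H1. How reads in shared stretches were assigned is not given in the sources used here, so the values of such genes are uncertain between copies. In the 10 genes with at most 10% shared, Hist2h4, Hist2h2bb, Hist1h1c, Hist3h2a, Hist1h1a, Hist3h2ba, Hist2h2be, Hist1h1d, Hist1h1b and Hist4h4, the median ΔNp73-labelled log2FC was -1.79, and in the 23 genes with over 50% shared it was -1.98. By gene model, it was -2.06 in 18 genes whose annotated transcript ends within 60 bases after the stem-loop, and -1.66 in 18 genes whose transcript runs more than 300 bases past it. It was -1.57 in the 6 genes with a longer end in which no stem-loop was found. The range of the last set, from -2.09 to 0.05, includes Hist1h2bc.

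The genes that make and place histones were taken as a list of 50 regulators, processing factors and chaperones, of which 48 were in the table and 47 were tested. None was called with all libraries in either comparison with control. At an unadjusted p under 0.05, 8 were lower in the ΔNp63-labelled and 10 in the ΔNp73-labelled group, beside 7.03% and 9.83% of all genes, and none was higher, beside 5.96% and 11.4%. The median log2FC was -0.21 and -0.39. Slbp, whose protein binds the stem-loop, was at 64.2 and 63.6, 22.4, 93.1 and 24.7, and 24.95, 24.7 and 34.01 FPKM. Npat, which activates replication-dependent histone genes, was at 9.96 and 9.85, 5.14, 8.94 and 6.59, and 6.12, 6.46 and 7.197 FPKM. All Cre libraries were below both controls for these genes, except ΔNp63-labelled replicate 2 for Slbp. Cenpa, the H3 of centromeres, was at 18.4 and 16.5, 4.78, 25.9 and 5.22, and 5.75, 5.89 and 8.85 FPKM. Its chaperone gene Hjurp was at 5.89 and 5.101, 2.76, 5.58 and 2.27, and 1.703, 1.71 and 2.97 FPKM. Anp32e, whose protein takes H2A.Z out of nucleosomes, was at 252 and 209.8, 68.7, 134 and 74.1, and 65.7, 71.5 and 105 FPKM. Anp32e had the smallest p of the list in both comparisons, with log2FC -1.38 (SE 0.33, adjusted p = 0.216) in the ΔNp63-labelled and -1.53 (SE 0.33, adjusted p = 0.0883) in the ΔNp73-labelled group. Hira, a chaperone gene for the replacement H3, was at 11.5 and 10.7, 7.35, 10.9 and 7.99, and 6.58, 7.23 and 7.82 FPKM. Atrx, a chromatin remodeller gene that acts with that H3, was at 41.3 and 37.4, 25.8, 16.8 and 30.8, and 29.03, 29.9 and 33.8 FPKM, and was lowest in ΔNp63-labelled replicate 2. Ep400, a remodeller gene for H2A.Z, was at 13.4 and 12.6, 9.28, 7.799 and 10.1, and 10.3, 11.1 and 11.7 FPKM. Vps72, an H2A.Z chaperone gene, was at 25.4 and 22.6, 25.2, 30.7 and 21.9, and 18.5, 20.7 and 21.9 FPKM. Neither had ΔNp73-labelled values far from the controls. H2afy2, the second macroH2A gene, was at 2.204 and 1.99, 2.55, 0.930 and 2.27, and 3.78, 2.76 and 2.99 FPKM, higher in the ΔNp73-labelled libraries than in any other. Without ΔNp63-labelled replicate 2, 22 of the 47 fell and none rose in the ΔNp63-labelled group, and 21 fell and 1 rose in the ΔNp73-labelled group. Of all genes, 10.8% and 16.1% were then called lower and 11.7% and 16.8% higher.

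Genes of DNA replication had log2FC values on the same side as the histone genes. All 54 genes of an S phase list had a log2FC below 0 in both comparisons, beside 52.3% and 56.7% of all genes, with medians of -0.65 and -1.05. None was called with all libraries, and 10 and 23 were lower at an unadjusted p under 0.05, beside 7.03% and 9.83%. Leaving that replicate out, 52 fell in the ΔNp63-labelled and 51 in the ΔNp73-labelled group, beside 10.8% and 16.1% of all genes. Their summed FPKM was between 2271 and 2400 in the controls, 2576 in ΔNp63-labelled replicate 2, as low as 789 in that group, and between 768 and 1152 in the ΔNp73-labelled libraries. Macrophage markers lay on the other side. The log2FC of 14 of 14 was above 0 in both comparisons, with sums between 412 and 468 in the controls, 465 in ΔNp63-labelled replicate 2, up to 1180 in that group, and between 1082 and 1426 in the ΔNp73-labelled libraries. Of 19 thymocyte markers, 18 were below 0 in both, and ΔNp63-labelled replicate 2 had the lowest sum of its group, 3426. Of 11 fibroblast markers, 9 and 10 were above 0, while their sum was between 1318 and 1571 in the controls and between 758 and 1001 and between 793 and 998 in the other groups, with Thy1 in both this and the thymocyte list. The summed FPKM of 7 B cell markers was between 34.1 and 35.7, between 4.76 and 68.9, and between 41.4 and 44.99 in the 3 groups, and that of 6 endothelial markers between 22.1 and 30.01, between 28.7 and 34.4, and between 31.7 and 56.1. The summed FPKM of 7 epithelial markers was between 424 and 444 in the controls, between 95.3 and 649.7 in the ΔNp63-labelled and between 527 and 935 in the ΔNp73-labelled libraries, where 7 of 7 had a log2FC above 0. That of 3 erythroid markers was between 80.5 and 309.7, between 29.9 and 568, and between 14 and 78.4, with 3 of 3 below 0 in the ΔNp73-labelled group. In the ΔNp73-labelled libraries these sums did not overlap those of the controls, whereas the sum of 4 adipocyte markers overlapped between all groups. Lack of overlap was common, as 35.7% of all genes were lower and 27.7% higher without overlap in that comparison. No marker was at 0 in all libraries of a group. The part of replication, cell mixture or any of these in the histone values was not tested.

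By likeness of pattern, measured as Pearson's r of log2(FPKM + 1) over the 8 libraries, the genes closest to Hist1h2ao were Hyls1 (r = 0.989), Retnla (0.983), Fbxo45 (0.982), Rapgef3 (0.980) and 2510012J08Rik (0.979). For H2afx, added after its values were seen, the closest were Anp32e (0.998), Srbd1 (0.990), Aspm (0.989), Hnrnpa3 (0.989) and Tubb4b (0.988). These are descriptions over libraries that share their group and, within the ΔNp63-labelled group, replicate 2.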

How the data were processed

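The authors deposited a table of FPKM per RefSeq transcript entry, quantile-normalised between the 8 libraries. Per the submitters' processing notes, the tools were TopHat2 2.0 and Cufflinks 2.0 and the build mm9, with no step given for either. The sorted values of all libraries agreed within 1% over the highest 14194 of 16589 entries. Symbols that had turned into dates (35 entries) were restored. From there, 1 entry per symbol was kept (highest mean), genes with at least 1 FPKM in at least 2 libraries were transformed to log2(FPKM + 1), and a linear model of all 8 libraries was fitted in limma 3.58.1 (R 4.3.3; intensity trend in the empirical Bayes step, 5 residual degrees of freedom, two-sided tests, Benjamini-Hochberg adjustment over every gene tested). The fit was run on simulated data with the same spread per gene in every library. Those data held no library that stood apart like ΔNp63-labelled replicate 2. Replicates were numbered in accession order. The members, lists and the use of a fit without ΔNp63-labelled replicate 2 were chosen with earlier results of these data known. Values per library are given for the histone genes with the highest levels, those called with or without that replicate and those with the smallest p, and were completed to all 70 genes. Of the supply list, Slbp, Npat, Cenpa, H2afy2, called genes and the 3 smallest p per comparison were named. Sequences came from GENCODE M21 and RefSeq on GRCm38, matched by RefSeq identifier, and no coordinate of the authors' build was used. Alternatives were other pseudocounts, filters, entry sums, median centring, no trend, limma array weights, models of only the groups compared and leaving out each library.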

Additional observations from a re-analysis of the deposited data

How the results depend on the processing

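No paired analysis was possible because the labels carry no replicate numbers. The number of genes called against control moved with the weight of single libraries. In the ΔNp63-labelled comparison, 4480 genes were called with array weights and 3 with only the groups compared in the model, and between 3 and 2882 when 1 library was left out. Replication-dependent histones called there numbered 55 with array weights, 0 with a pseudocount of 0.5 or only those groups, and between 0 and 50 when leaving out 1 library, and variants numbered 5 with array weights and between 0 and 5. The replication-dependent median minus the variant median was -1.44 with array weights and between -1.47 and -0.45 when 1 library was left out, ΔNp63-labelled replicate 2 giving the former. In the ΔNp73-labelled comparison, 18 and 11 genes were called with pseudocounts of 0.1 and 0.5, 6569 with array weights, 3856 with only the groups compared, and between 0 and 4212 when leaving out 1 library. Replication-dependent histones called numbered 57 with array weights, 51 with only the groups compared and between 0 and 54 by library, and variants 5, 4 and between 0 and 4. Their median log2FC ran from -2.01 to -1.68 over the libraries left out in that comparison, and from -2.06 to -0.79 in the ΔNp63-labelled one. Between the ΔNp73-labelled and ΔNp63-labelled groups, 344 genes were called with array weights and between 6 and 19 when 1 library was left out. The direction of the replication-dependent median there turned to 0.0297 with array weights, and leaving out 1 library gave -1.04 to 0.20. For the variants these were 0.0733 and -0.43 to 0.12, and for the class difference leaving out 1 library gave -0.67 to 0.0768. Among the fits that leave out 1 library, the positive values are those without ΔNp63-labelled replicate 2. Array weights and leaving out ΔNp63-labelled replicate 2 both lessen the weight of that library. For the other changes the cause was not tested. Of the 70 histone genes, H1f0 and H2afy changed direction against control without ΔNp63-labelled replicate 2, in the ΔNp63-labelled comparison, from 0.13 to -0.60 and from 0.08 to -0.0072. Between the ΔNp73-labelled and ΔNp63-labelled groups 38 of the 70 did, and those below 0 went from 59 to 23. The depth is unknown, so what it limits cannot be stated, and leaving out a control leaves 1, whose spread is taken from the other groups.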
